A study of Mus musculus with 2 samples.

Results

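Mast cell proteases are represented here by 4 genes, Cma1, Mcpt4, Tpsb2 and Cpa3, taken by symbol from the 32285 genes of the deposited feature tables. All 4 were found once in each table and had UMIs in both sections. They were measured with Visium, an assay that captures RNA from a tissue section on barcoded spots that each cover several cells, and a UMI is a count of 1 captured RNA molecule. There was 1 heart section from a PD1 Het mouse and 1 from a PD1 KO mouse, labels that refer to 1 or both copies of the gene for the inhibitory receptor PD-1. The labels give no allele for either genotype and no wild-type section. Both were C57BL/6 mice whose left anterior descending coronary artery was tied at postnatal day 2, and both hearts were taken 7 days later. Sections were 10 µm thick and lay 200 µm below the suture.

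Mast cells are tissue-resident immune cells that store proteases in cytoplasmic granules together with histamine and heparin. Connective tissue mast cells, the kind found in heart and skin, carry chymases, tryptases and carboxypeptidase A. Cma1 and Mcpt4 encode the chymases mouse mast cell protease 5 and 4, and chymase activity can produce angiotensin II and cleave fibronectin. Tpsb2 encodes the tryptase mouse mast cell protease 6, and Cpa3 encodes carboxypeptidase A3, which degrades peptides such as endothelin and snake venom toxins. Mast cells depend on the receptor KIT and its ligand stem cell factor, and the transcription factors GATA2 and MITF are known to act on their protease genes.

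On GRCm38 both chymase genes lie on chromosome 14, Cma1 (ENSMUSG00000022225) at 55941451 to 55944675 and Mcpt4 (ENSMUSG00000061068) at 56059629 to 56062313, both on the minus strand. Cpa3 (ENSMUSG00000001865) lies on chromosome 3 at 20215620 to 20242181 on the minus strand, and Tpsb2 (ENSMUSG00000033825) on chromosome 17 at 25366305 to 25369098 on the plus strand. All are protein-coding. The assay reads the ends of transcripts, so the last 400 bases of each annotated transcript were searched for 31-mers that also occur in another gene. Cma1 shared 95 of 372 with the gene model Gm48934, and Mcpt4 shared 72 of 370, mainly with the chymase genes Cma2 and Mcpt9. Tpsb2 and Cpa3 shared 0. Cma2 had 3 UMIs in the PD1 Het section against 0 in the PD1 KO section, and Mcpt9 had 0 in both.

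The members had their UMIs in the same few spots, so the 250 bases before the start of each gene are shown for the 3 with an entry in the RefSeq promoter table (GRCm38.p6), written 5′ to 3′ on the strand of the gene. Capitals mark GATA words, which are AGATAA and its variant AGATAG or the word TGATAA and its variant TGATAG, on either strand. They also mark the TATA box, TATAAA on the strand of the gene. The windows are chr14:55944676-55944925 for Cma1, chr14:56062311-56062560 for Mcpt4 and chr3:20242182-20242431 for Cpa3.
Cma1: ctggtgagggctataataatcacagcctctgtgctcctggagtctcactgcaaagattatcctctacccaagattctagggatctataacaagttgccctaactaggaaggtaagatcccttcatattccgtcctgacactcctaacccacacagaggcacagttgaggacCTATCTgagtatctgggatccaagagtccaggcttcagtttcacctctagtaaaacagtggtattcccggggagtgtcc
Mcpt4: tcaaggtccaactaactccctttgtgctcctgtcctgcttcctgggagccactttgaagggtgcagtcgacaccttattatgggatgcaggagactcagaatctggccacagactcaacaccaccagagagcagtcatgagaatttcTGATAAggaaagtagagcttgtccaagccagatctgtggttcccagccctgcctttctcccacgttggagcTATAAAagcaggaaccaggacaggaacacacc
Cpa3: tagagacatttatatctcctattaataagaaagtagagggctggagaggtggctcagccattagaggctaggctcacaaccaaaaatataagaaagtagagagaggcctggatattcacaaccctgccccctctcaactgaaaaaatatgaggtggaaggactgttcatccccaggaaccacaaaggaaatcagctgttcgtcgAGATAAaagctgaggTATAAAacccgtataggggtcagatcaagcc
Each of the 3 windows held 1 GATA word. It began 79 bases before the start in Cma1, where CTATCT reads AGATAG on the other strand, 103 bases before it in Mcpt4 and 46 bases before it in Cpa3. A TATA box began 32 bases before the start of Mcpt4 and 31 before that of Cpa3, and Cma1 had none. Of 32851 mouse promoter windows of the same length, 26.5% held a GATA word and 7.59% a TATA box. None of the 3 windows held the E-box words that MITF can bind, CATGTG (read as CACATG on the other strand) and the word CACGTG, against 17.6% of all windows. A match is a description of the letters, not of binding.

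With a minimum of 500 UMIs per spot, 811 PD1 Het spots and 851 PD1 KO spots remained, with 12814494 and 23520499 UMIs and medians of 15475 and 27134 UMIs per spot. Levels are given as CPM, the usual scaling of counts to the total of a library, here all UMIs of the section, and 3 UMIs correspond to 0.234 and 0.128 CPM. Intervals are 95% and cover counting error only, because each genotype had 1 section and no test over animals was possible. Pdcd1, the targeted gene, had 0 UMIs in both sections, so it does not check the labels. Xist had 541 UMIs in the PD1 Het section against 1 in the PD1 KO section, so the sections also differ in sex-linked RNA. Mitochondrial genes took 25.6% and 15.9% of the UMIs. Genotype, sex, animal and section cannot be told apart. The 2 sections shared 225 spot barcodes, and at these the Y-linked genes had 0 UMIs in the PD1 Het section against 721 in the PD1 KO section.

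All 4 proteases had a lower level in the PD1 KO section, and for 3 of them the interval of the ratio lay below 1. Cma1 had 261 UMIs in the PD1 Het section (20.4 CPM, 18.0 to 23.0) and 291 in the PD1 KO section (12.4 CPM, 11 to 13.9). Mcpt4 had 111 UMIs (8.66 CPM, 7.13 to 10.4) and 166 UMIs (7.06 CPM, 6.02 to 8.22). Of the chymases, the intervals of the sections lay apart for Cma1 and overlapped for Mcpt4. Tpsb2 had 106 UMIs (8.27 CPM, 6.77 to 10.0) and 83 UMIs (3.53 CPM, 2.81 to 4.37). Cpa3 had 77 UMIs (6.01 CPM, 4.74 to 7.51) and 86 UMIs (3.66 CPM, 2.92 to 4.52). For both of these the intervals of the sections did not overlap.

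**Figure D1:**
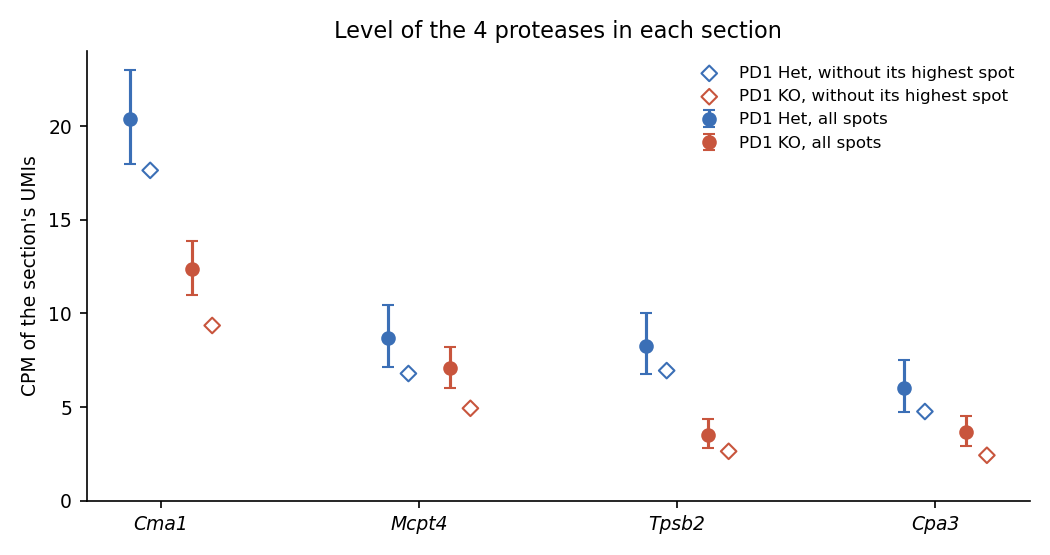
CPM of each protease in the PD1 Het and PD1 KO sections (filled points, with 95% Poisson intervals that cover counting error only, 1 section per genotype) and CPM without the spot that holds most of its UMIs (open diamonds). Each gene lies lower in the PD1 KO section, from 20.4 to 12.4 CPM for Cma1, and the intervals of Mcpt4 overlap.

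As PD1 KO over PD1 Het ratios of CPM, Tpsb2 was 0.427 (0.316 to 0.574), Cma1 0.607 (0.512 to 0.721), Cpa3 0.609 (0.442 to 0.839) and Mcpt4 0.815 (0.637 to 1.05). The tryptase thus had the lowest ratio and Mcpt4 the highest, and Cma1 and Cpa3 did not differ beyond counting error. With all members summed, 555 UMIs (43.3 CPM, 39.8 to 47.1) stood against 626 UMIs (26.6 CPM, 24.6 to 28.8), a log2 ratio of -0.70 (-0.87 to -0.53). Cma1, Tpsb2 and Cpa3 were at least 1.5-fold lower, against 0.681% of the 11455 genes with a summed count of 100 UMIs or more over the sections, where 22.5% were at least 1.5-fold higher. The median gene had a log2 CPM ratio of 0.33, and relative to it the members stood at -1.05 for Cma1, -0.63 for Mcpt4, -1.56 for Tpsb2 and -1.05 for Cpa3. All 4 were then at least 1.5-fold lower, against 3.3% of genes, with 5.5% at least 1.5-fold higher. In a section, fewer mast cells and less protease RNA per mast cell cannot be told apart.

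The size of the difference depended on a few spots. Without the 3 PD1 Het spots with the most protease UMIs, taken out of that section alone, the log2 ratio of the sum was 0.01 in place of -0.70. Without the 1 highest PD1 KO spot, taken out alone, it was -1.16. Without the highest spot of each section it was -0.91, and without the 10 highest of each it was -0.46. In that last comparison Mcpt4 stood at 0.82, higher in the PD1 KO section. In spots with fewer than 5 protease UMIs the ratio of the sum was 0.648 (0.519 to 0.811). That cut is a raw count, so the deeper PD1 KO spots are left out at a smaller share of their UMIs. The ratio is therefore not matched for depth.

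The share of spots with any protease UMI was close in both sections. It was 15.5% of PD1 Het spots (126 spots, 13.1 to 18.2) and 15.9% of PD1 KO spots (135 spots, 13.5 to 18.5). Because PD1 KO spots were deeper, each spot was also thinned to 10000 UMIs, which left out 52 PD1 Het and 12 PD1 KO spots. The shares were then 10.5% (8.45 to 12.9) and 10.8% (8.82 to 13.1). For single members the thinned shares were 6.72% and 5.96% for Cma1, 2.64% and 3.34% for Mcpt4, 3.16% and 2.15% for Tpsb2 and 2.50% and 2.62% for Cpa3, with overlapping intervals in each case. A difference in the share of spots was not detectable at this depth.

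Protease UMIs were concentrated. The highest PD1 Het spot held 89 of 555 UMIs (16.0%) and the highest PD1 KO spot 171 of 626 (27.3%). The 10 highest spots held 60.5% and 53.0%, and 50% of the UMIs lay in 5 and 9 spots. At the other end, 73 PD1 Het and 70 PD1 KO spots held exactly 1 protease UMI. These numbers were similar although PD1 KO spots were deeper. In spots with fewer than 5 protease UMIs the CPM ratio of PD1 KO over PD1 Het was 0.648 (0.519 to 0.811), at a cut not matched for depth. The highest spots differed as well: the next PD1 Het spots after the first held 65, 64, 37 and 27 UMIs, and the next PD1 KO spots 23, 23, 22 and 20.

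**Figure D2:**
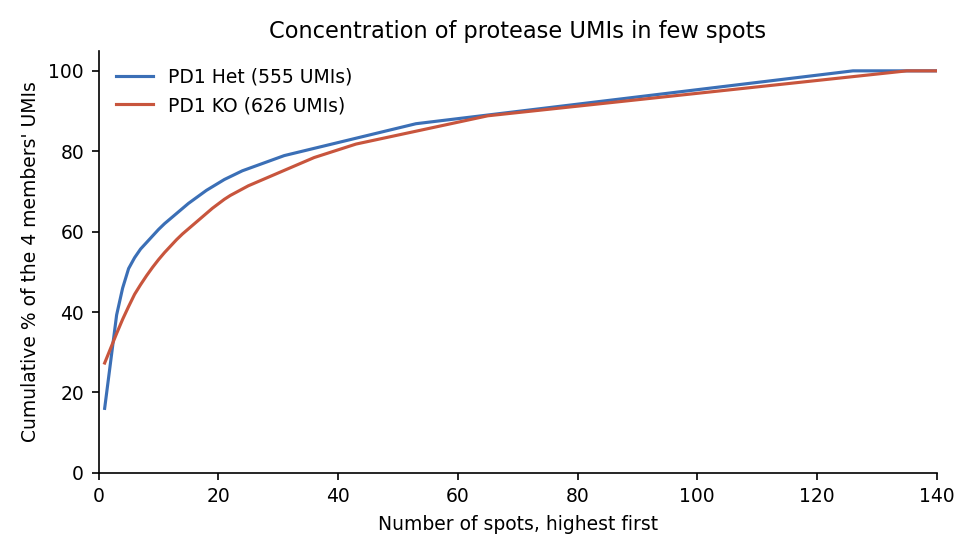
Cumulative percent of the UMIs of the 4 proteases (vertical axis) over spots ordered from the highest (horizontal axis), 1 line per section. The first spot holds 16.0% in the PD1 Het against 27.3% in the PD1 KO section, and both lines reach all UMIs at 126 and 135 spots.

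The members occurred together. In the PD1 Het section Tpsb2 was found in 30% of the 80 spots with Cma1 and in 2.87% of the spots without it, and in the PD1 KO section in 25.8% of 89 spots and 2.10%. Cpa3 was found in 47.1% of the 34 PD1 Het spots with Mcpt4 and in 2.96% of the others, and in 32.8% of 61 PD1 KO spots and 2.41% of the others. All 4 members were present in 10 PD1 Het spots, which held 329 UMIs (59.3%), and in 9 PD1 KO spots, which held 279 (44.6%). Across the 811 and 851 spots, which share a library, Pearson's r between the UMIs of 2 members was 0.86 to 0.91 in the PD1 Het section against 0.86 to 0.96 in the PD1 KO section. Without the highest spot it was 0.78 to 0.86 and 0.35 to 0.67.

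Spots with at least 5 protease UMIs are called protease-rich, a choice made on the protease counts, so protease levels in them are a description. There were 21 in the PD1 Het section (2.59% of spots) with 405 UMIs (73.0%), and 25 in the PD1 KO section (2.94%) with 447 UMIs (71.4%). The cut is a raw count, so the deeper PD1 KO spots reach it at a smaller share of their UMIs. The members stood at 1104 CPM in PD1 Het and 735 CPM in PD1 KO protease-rich spots. Comparisons of these spots between sections are therefore not matched for depth. At the threshold, 3 PD1 Het and 11 PD1 KO spots had exactly 4 UMIs, and 3 in each section had exactly 5. The median depth was 15930 UMIs in protease-rich and 15465 in other PD1 Het spots, and 25435 and 27218 in the PD1 KO section. At least 3 of the 4 members were present in 15 of 21 and 21 of 25 of these spots, and none held a single member.

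The highest PD1 KO spot held 71 Cma1, 50 Mcpt4, 21 Tpsb2 and 29 Cpa3 UMIs, together 0.969% of its 17641 UMIs. The highest PD1 Het spot held 35, 21, 17 and 16 UMIs in the same order. No 1 member made up these spots, and Cma1 had the most UMIs in each. A barcode marks the same position on each array, and 2 barcodes were protease-rich in both sections. The 4 highest PD1 Het barcodes, also present in the PD1 KO section, held 3, 1, 5 and 2 UMIs there. Of the PD1 KO protease-rich barcodes, 14 of 25 were present in the PD1 Het section, where 6 of these had a protease UMI. Of the PD1 Het ones, 10 of 21 were present in the PD1 KO section, where 7 of these had a protease UMI. Over all 225 shared barcodes, the share with a protease UMI was 20.4% in the PD1 Het against 28.9% in the PD1 KO section.

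**Figure D3:**
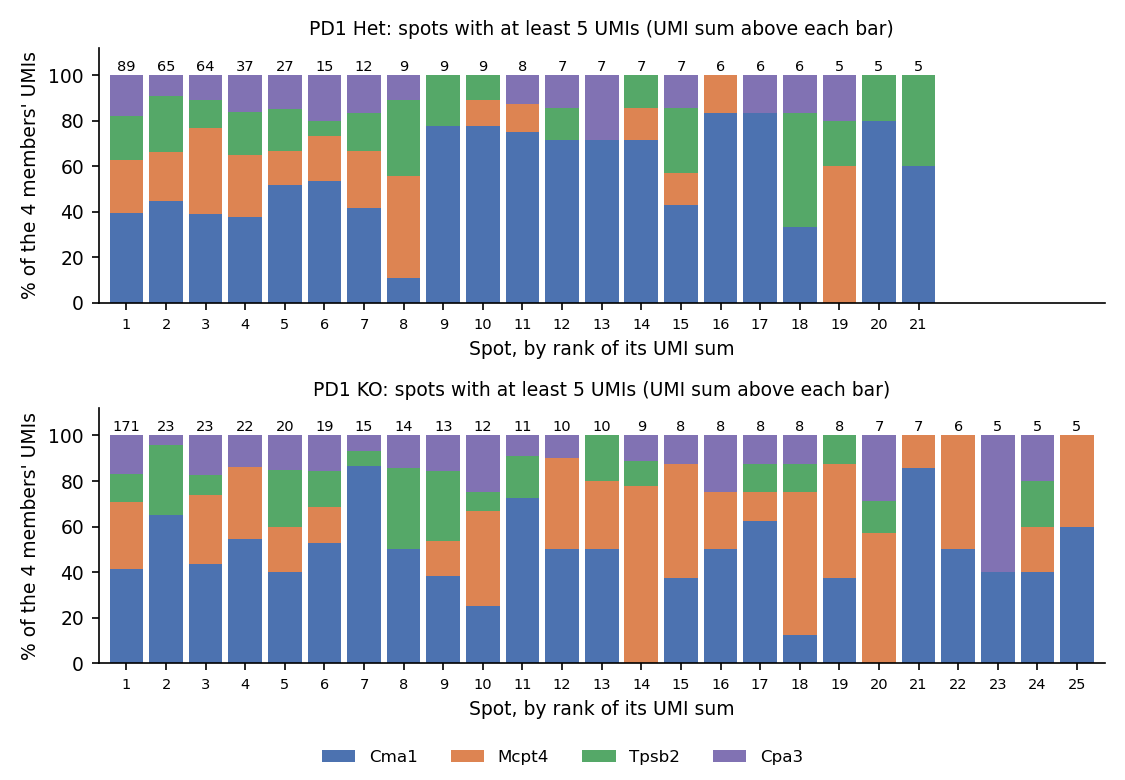
Makeup of each protease-rich spot, as the percent of its UMIs of the 4 members that came from Cma1, Mcpt4, Tpsb2 and Cpa3, with the UMI sum above the bar (PD1 Het above, 21 spots; PD1 KO below, 25 spots). Mcpt4 is absent from 7 PD1 Het and 5 PD1 KO spots, and Cma1 from 1 and 2.

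The mixture of the members differed most in its Mcpt4 and Tpsb2 parts, with intervals that overlapped at their ends. Cma1 gave 47.0% of the members' UMIs in the PD1 Het section against 46.5% in the PD1 KO section, and Cpa3 13.9% and 13.7%. Mcpt4 gave 20% (16.7 to 23.6) and 26.5% (23.1 to 30.2), and Tpsb2 19.1% (15.9 to 22.6) and 13.3% (10.7 to 16.2). Outside the protease-rich spots the Mcpt4 share was 13.3% (8.34 to 19.8) of 150 UMIs against 26.3% (19.97 to 33.3) of 179, intervals that lay just apart. Inside them it was 22.5% and 26.6%.

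The 2 chymases departed from the ratio of their section in a few spots, mainly of the PD1 KO section. Mcpt4 made up 29.8% (25.2 to 34.8) of chymase UMIs in the PD1 Het section against 36.3% (31.9 to 40.9) in the PD1 KO section. The interval of most protease-rich spots held the Mcpt4 share of their section. In the PD1 Het section only the third spot, at 49.0% (34.4 to 63.7), had an interval that left it out. In spots picked after their values were seen, the second PD1 KO spot held 15 Cma1 and 0 Mcpt4 UMIs, which allows a Mcpt4 share of up to 21.8%, and the seventh held 13 and 0. The 14th held 0 Cma1 and 7 Mcpt4 UMIs, which allows a Mcpt4 share down to 59.0%. The 20th held 0 and 4, which allows a share down to 39.8%. Protease-rich spots without Mcpt4 numbered 7 and 5, those without Cma1 numbered 1 and 2, and Mcpt4 exceeded Cma1 in 2 PD1 Het and 6 PD1 KO spots.

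Other proteases of the family were rare. Mcpt2, a chymase best known from mucosal mast cells, had 5 UMIs in 5 PD1 Het spots, none of them protease-rich. In the PD1 KO section it had 27 UMIs, of which 23 lay in the spot with 171 protease UMIs. That spot also held 4 of the 10 Tpsab1 UMIs of its section. Tpsab1, the other tryptase of connective tissue mast cells, had 3 UMIs in the PD1 Het section. Cpa1, a digestive carboxypeptidase, had 31 and 108 UMIs with 1 in protease-rich spots of each section, so it did not follow the members. Mcpt1 had 0 UMIs, and Mcpt8 of basophils had 0 and 1. Prss34, a tryptase-like protease made by mast cells and basophils, had 13 UMIs in each section, with 9 of them in protease-rich spots of each section.

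Defining mast cell genes were checked beside the proteases, and most were near the floor of the assay. Fcer1a, the IgE-binding chain of the high-affinity IgE receptor, had 2 PD1 Het UMIs and 8 PD1 KO UMIs, 6 of the latter in protease-rich spots. Mrgprb2, a mast cell receptor for basic peptides, had 4 and 8 UMIs, with 2 and 4 in protease-rich spots. Ms4a2, the beta chain of the IgE receptor, had 2 and 1. These receptor counts are too low for a level, but their UMIs lay partly where the proteases did.

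Fcer1a, Ms4a2, Mrgprb1, Mrgprb2, Cd200r3, Tpsab1, Prss34, Hdc and Slc18a2 were therefore summed, a set of 9 genes chosen after their values were seen. At least 1 UMI of the set was found in 42.9% (21.8 to 66.0) of PD1 Het protease-rich spots, in 12.4% (6.76 to 20.2) of spots with 1 to 4 protease UMIs and in 4.67% (3.22 to 6.53) of spots with none. In the PD1 KO section the shares were 64.0% (42.5 to 82.0), 15.5% (9.27 to 23.6) and 6.70% (4.98 to 8.79). Since the set was chosen on these counts, the shares are a description only. Median depths of protease-rich spots and of spots with none were 15930 and 15408 UMIs in the PD1 Het and 25435 and 27556 UMIs in the PD1 KO section. The full receptor list was at 2.04-fold (1.72 to 2.39) and 1.52-fold (1.32 to 1.74) the CPM of other spots, and the granule and mediator list at 2.22-fold (1.74 to 2.78) and 1.81-fold (1.52 to 2.14). In each section 3 of the 12 receptor list genes had at least 30 UMIs. The list had 156 UMIs in protease-rich and 2599 in other PD1 Het spots, and 212 and 5260 in PD1 KO ones. Kit gave 100 and 282 of a section's UMIs, and Fcer1a, Ms4a2, Mrgprb1, Mrgprb2, Cd200r3 and Il1rl1 at most 4 and 14 each. The receptor list ratio therefore came mostly from other genes and does not measure these receptors.

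Kit, the receptor for stem cell factor, had 100 UMIs in the PD1 Het section against 282 in the PD1 KO section, so its level was not lower there, with a CPM ratio of 1.54. Only 8 and 13 Kit UMIs lay in protease-rich spots, at 2.95-fold (1.24 to 6.06) and 1.82-fold (0.96 to 3.17) the CPM of other spots. Spots with any protease UMI held 21 of 100 and 39 of 282 Kit UMIs, and in the PD1 KO section 13 of the 42 UMIs of Rab27b, which acts in granule release. Hdc, which makes histamine, had 29 and 51 UMIs with 3 and 6 in protease-rich spots. Slc18a2, which loads histamine into granules, had 13 and 18 with 1 and 5. Srgn, the proteoglycan core that holds granule proteases and is made by many blood cells, was 2.49-fold (1.65 to 3.63) and 2.06-fold (1.55 to 2.68) higher in protease-rich spots. The transcription factors as a list were at 1.02-fold (0.72 to 1.39) and 1.003-fold (0.79 to 1.25), with Gata2 at 3 of 98 and 10 of 246 UMIs and Mitf at 5 of 326 and 17 of 778 UMIs in protease-rich spots.

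The tissue of the protease-rich spots was described with genes that took no part in choosing them. In the PD1 Het section, 22.5% of genes with at least 30 UMIs were at least 1.5-fold higher in protease-rich than in other spots and 16.0% lower, and in the PD1 KO section 15.6% and 13.1%. Among genes with at least 300 UMIs the shares were 10.7% and 7.44% in the first and 7.68% and 6.17% in the second. Macrophage markers were higher in both, 2.58-fold (2.29 to 2.90) in the PD1 Het and 2.24-fold (2.06 to 2.43) in the PD1 KO section, with 11 of 11 and 11 of 12 measured genes at least 1.5-fold higher. They were above the median of other spots in 14 of 21 and 23 of 25 protease-rich spots. C1qb, a complement subunit made by macrophages, was 2.51-fold (1.87 to 3.33) and 2.17-fold (1.74 to 2.69) higher. Without the highest spot the list stood at 2.13-fold and 2.12-fold. In the 7 PD1 Het spots with at least 10 protease UMIs it stood at 5.63-fold (4.84 to 6.51), and scar matrix genes at 4.29-fold (4.11 to 4.47). In the 13 such PD1 KO spots these lists stood at 2.58-fold (2.30 to 2.88) and 1.71-fold (1.65 to 1.77).

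The summed scar matrix and fibroblast lists were also higher, by more in the PD1 Het section, at a cut that is not matched for depth. Scar matrix genes were at 2.46-fold (2.39 to 2.54) with 14 of 18 genes at least 1.5-fold higher, against 1.34-fold (1.31 to 1.38) and 4 of 18 genes in the PD1 KO section. Over all genes with at least 30 UMIs the shares were 22.5% and 15.6%, so the PD1 KO count of 4 lies near the share of all genes. Col3a1, a fibrillar collagen of scars, was at 3.85-fold (3.68 to 4.01) and 1.53-fold (1.46 to 1.60), and Postn, a matrix protein of activated fibroblasts, at 1.496-fold (1.33 to 1.67) and 1.32-fold (1.22 to 1.42). Fibroblast markers were at 2.30-fold (2.22 to 2.40) and 1.498-fold (1.45 to 1.55). Resident macrophage genes were at 2.74-fold (2.35 to 3.17) and 1.42-fold (1.22 to 1.64). At least 1.5-fold higher were 7 of 7 and 3 of 8 measured genes, and 1 was at least 1.5-fold lower in the PD1 KO section. The median gene of the list stood at 2.88-fold and 1.21-fold. Igf1, a growth factor in this list, was at 4.28-fold (3.04 to 5.89) and 2.32-fold (1.72 to 3.06).

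Ventricular cardiomyocyte markers were lower in protease-rich spots, at 0.79-fold (0.78 to 0.81) in the PD1 Het section against 0.91-fold (0.91 to 0.92) in the PD1 KO section. Myl2, the ventricular light chain, was at 0.81-fold and 0.92-fold. Endothelial markers were at 0.96-fold (0.90 to 1.02) and 0.98-fold (0.94 to 1.03), and pericyte markers at 1.03-fold (0.91 to 1.16) and 0.93-fold (0.86 to 1.01), intervals that hold 1. Arterial smooth muscle markers were at 1.101-fold (1.01 to 1.20) and 0.95-fold (0.89 to 1.02). Lymphatic vessel markers were at 1.63-fold (1.17 to 2.20) and 1.18-fold (0.89 to 1.53), with 52.3% of the PD1 Het UMIs of protease-rich spots in 1 spot. Epicardial and mesothelial markers were at 1.69-fold (1.27 to 2.22) and 1.56-fold (1.28 to 1.89). Adventitial fibroblast markers, which mark the outer coat of vessels, were at 1.17-fold and 0.89-fold, on opposite sides of 1.

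**Figure D4:**
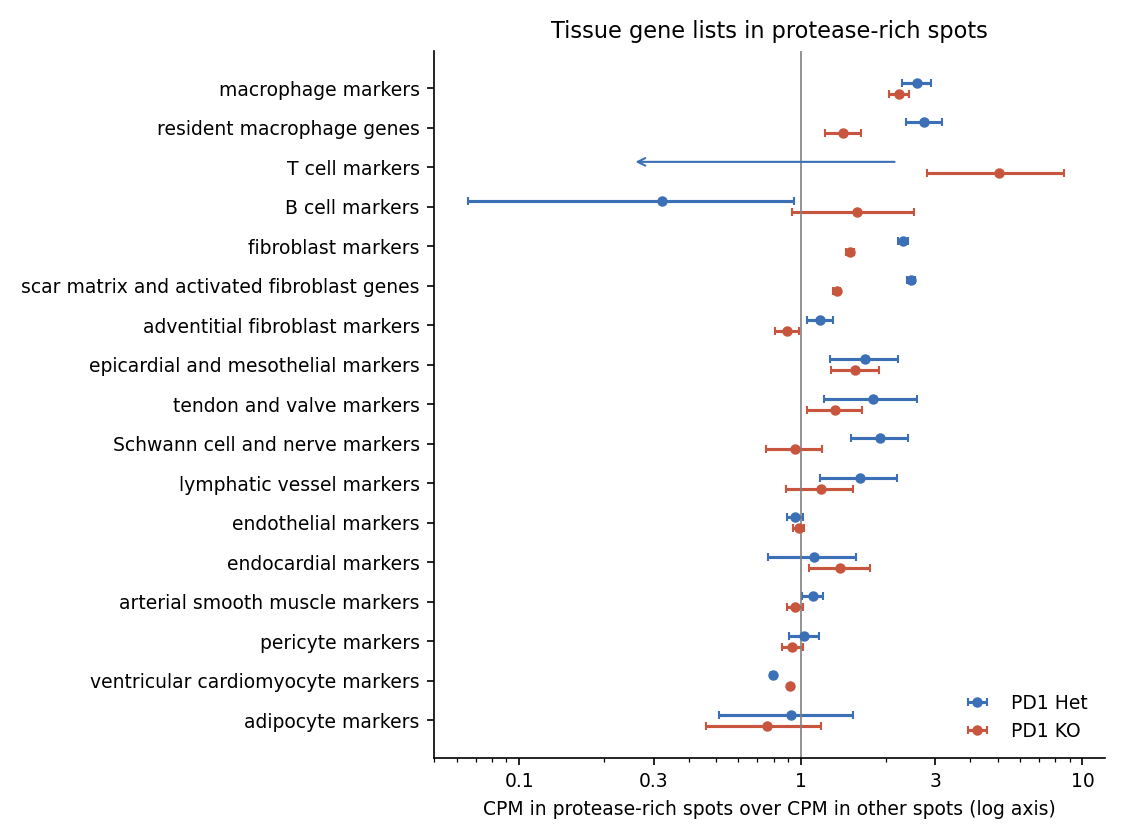
Ratio of the CPM of selected tissue gene lists in protease-rich spots over other spots of the same section (log axis), with 95% intervals that cover counting error only, for the PD1 Het (21 spots) and PD1 KO (25 spots) sections. The red blood cell, thymus and lymph node, neutrophil, atrial, skeletal muscle and lung lists are not drawn. Macrophage markers lie above 2 in both sections and ventricular cardiomyocyte markers below 1, and the arrow for T cell markers runs from the upper limit that 0 UMIs allow.

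Other immune lists were sparse. T cell markers had 0 of 58 UMIs in PD1 Het protease-rich spots, which allows up to 2.23-fold, and 16 of 135 in PD1 KO ones, at 5.07-fold (2.81 to 8.57) the CPM of other spots. These 16 UMIs came from 8 spots, with Trac at 4 of 54 and Trbc1 at 4 of 18. The basophil and eosinophil list, which holds Prss34, had 10 UMIs in protease-rich spots of each section, at 21.2-fold (8.60 to 49.7) and 10.2-fold (4.52 to 20.9), and 9 of the 10 were Prss34 in each. The thymus and lymph node list had 7 of 16 UMIs there in the PD1 Het section, at 26.4-fold (8.35 to 79.6), all from the chemokine gene Ccl19, and 2 of 12 in the PD1 KO section. Neutrophil markers had 2 UMIs in protease-rich spots of each section. B cell markers were at 0.32-fold (0.066 to 0.947) and 1.58-fold (0.93 to 2.53). Red blood cell genes were 3.65-fold and 1.30-fold higher, and 49.6% and 46.9% of those UMIs lay in 1 spot of each section. With these genes left out of the total, the log2 ratio of the summed proteases between sections was -0.70, as with them.

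Stem cell factor, encoded by Kitl, was at 0.84-fold (0.49 to 1.35) and 0.97-fold (0.70 to 1.32) in protease-rich spots, and the growth factor list at 1.38-fold (1.098 to 1.73) and 1.02-fold (0.85 to 1.21). The substrate and inhibitor list was at 2.15-fold (1.95 to 2.37) and 1.40-fold (1.30 to 1.51). Most of its UMIs came from Fn1, fibronectin, at 2.25-fold (1.99 to 2.53) and 1.39-fold (1.27 to 1.52), which the scar matrix list also holds. Agt, the precursor of angiotensin, had 1 of 52 and 3 of 95 UMIs in protease-rich spots.

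Protease levels were highest where scar matrix was most abundant. For this, spots were ordered within a section by how much of their RNA came from scar matrix genes, and cut into 5 bins with equal spot numbers. In the lower 4 bins the members stood between 10.7 and 23.6 CPM in the PD1 Het section against 8.51 to 17.2 CPM in the PD1 KO section, with no steady order. In the highest bin they stood at 177 CPM (387 UMIs, 14 protease-rich spots) and 94.0 CPM (358 UMIs, 10 protease-rich spots). Without the highest spot these values were 137 and 49.4 CPM. The ratio of PD1 KO over PD1 Het was 1.03 (0.67 to 1.63) in the lowest bin, then 1.56 (1.01 to 2.48), 0.361 (0.238 to 0.544) and 0.966 (0.662 to 1.42), and 0.532 (0.460 to 0.616) in the highest, with no steady order. The bin with the least ventricular marker share showed the same, with 141 CPM against 83.7 CPM.

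**Figure D5:**
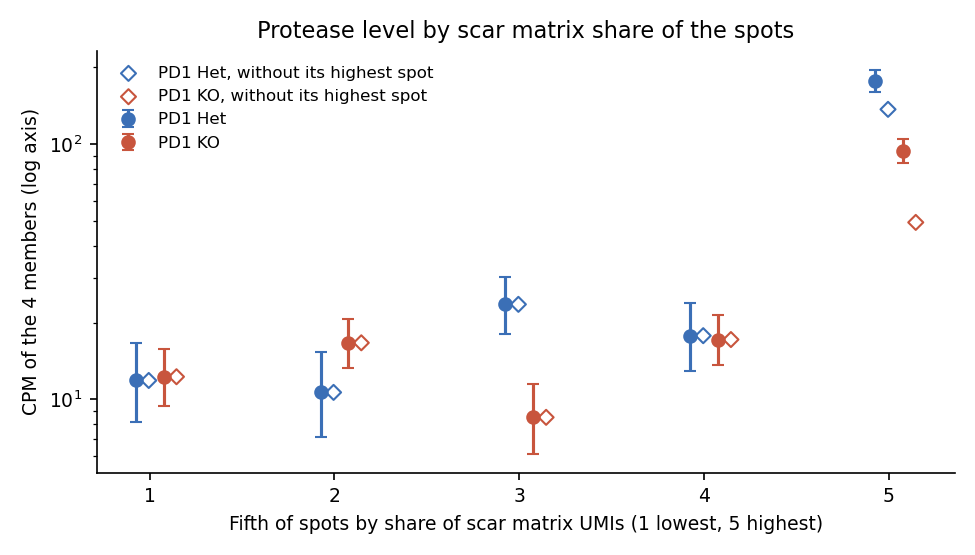
CPM of the 4 proteases (log axis) in 5 bins of spots ranked by their share of scar matrix UMIs, with 95% Poisson intervals, in each section; open diamonds leave out the highest spot. The highest bin stands at 177 CPM in the PD1 Het against 94.0 CPM in the PD1 KO section, above the other bins.

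Within the highest matrix bin the protease-rich spots still differed from the other spots of that bin. Macrophage markers were at 2.18-fold (1.90 to 2.49) in 14 PD1 Het spots against 148 others, and at 1.70-fold (1.51 to 1.90) in 10 PD1 KO spots against 160 others. Fibroblast markers were at 1.38-fold and 1.30-fold. Scar matrix genes themselves were at 1.72-fold (1.66 to 1.78) and 1.28-fold (1.24 to 1.33), so the bin did not even out the matrix share. In the lower 4 bins the sections parted: macrophage markers were at 0.70-fold (0.47 to 1.01) in 7 PD1 Het spots and at 2.03-fold (1.79 to 2.28) in 15 PD1 KO spots. Scar matrix genes there were at 1.12-fold and 0.96-fold.

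Spots of both sections were also clustered together without the genes of the mast cell and other immune lists. Some immune genes outside these lists, such as C3, were not removed. A region of 70 PD1 Het and 117 PD1 KO spots, led by Fmod, C1qtnf3, Nppa, Col11a1 and Col12a1, held 345 protease UMIs (62.2%, 393 CPM) and 313 (50%, 123 CPM). Its ratio was 0.312 (0.267 to 0.365), below that of the whole sections. Its highest PD1 KO spot gave 171 of the 313 UMIs, and without the highest spot of each section the region stood at 296 and 56.1 CPM. At the coarser resolution of 0.3 the leading region held 75.6% of the PD1 KO UMIs, but it was larger, with 351 PD1 KO spots (41.2%). A small region of 24 and 17 spots, led by C3, Msln, Igfbp6 and Dlk1, went the other way, with 21 UMIs (52.7 CPM) and 54 UMIs (115 CPM) and a ratio of 2.19 (1.30 to 3.81). Those UMIs lay in 9 and 5 spots, and 1 PD1 KO spot gave 23 of the 54; without the highest spot of each section the levels were 37.5 and 69.4 CPM. A region led by Npr3 and Plvap, of 51 and 35 spots, held 3 UMIs in each section. The 3 other regions were each made mostly of spots of 1 section, so no ratio is given for them.

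Of 8300 other genes with at least 100 UMIs in each section, outside the excluded classes, 290 were at least 1.5-fold higher in protease-rich spots of both sections, 1497 in the PD1 Het against 740 in the PD1 KO section. The gene with the largest smaller ratio was Sfrp2, a secreted Wnt modulator of fibroblasts, at 8.68-fold (6.88 to 10.9) and 4.04-fold (3.31 to 4.90). C3, the central complement protein, followed at 4.67-fold (3.40 to 6.29) and 3.94-fold (3.23 to 4.78), but in the PD1 Het section it was 1.37-fold (0.74 to 2.32) without its highest spot. Cd74, the invariant chain of antigen presentation, was at 3.71-fold and 6.01-fold. The others were Cyth4, Svep1, H2-T23, Cpxm1, Apoe, Dlk1 and Cyp27a1, with Apoe, a lipid carrier of macrophages, at 3.60-fold and 2.90-fold. Without the protease-rich spot highest for the gene, H2-T23 was at 2.25-fold (0.81 to 5.09) in the PD1 Het section. Cyp27a1 was then at 2.34-fold (0.84 to 5.28) there, and Dlk1 at 2.00-fold (0.85 to 4.05) in the PD1 KO section. These intervals hold 1. Sfrp1 at 6.65-fold was among the 5 highest in the PD1 Het section, and Aif1, a macrophage gene, at 4.16-fold among the 5 highest in the PD1 KO section, against 0.93-fold in the PD1 Het section.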

How the data were processed

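The deposited matrices hold raw UMI counts per gene and spot for 1 PD1 Het and 1 PD1 KO section, written by Space Ranger, version 1.1.0, per the file headers, and the submitters' processing notes name the builds mm10 and GRCm38. Spot positions and aligner settings were not used here. The members and gene lists were chosen with earlier results of these data known. Spots with at least 500 UMIs were kept. UMIs were summed per section or spot group and scaled to CPM. Intervals at 95% are exact Poisson for sums, Clopper-Pearson for shares and exact conditional for ratios. Only the ratio interval was checked by simulation, on PD1 Het totals drawn from the binomial model that the interval assumes. That check does not cover UMIs clumped in few spots. With 1 section per group, there is no test, standard error or p-value, since spots of 1 section are not replicates.

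A list was summed, and its genes were counted as higher or lower at 1.5-fold among those with at least 30 UMIs in the section. The 31 lists held 293 genes, all matched by symbol. Named were the members, other mast cell genes with a summed count of 10 or more, up to 3 genes of each list with the most UMIs, and genes most like the members by the ratio of protease-rich over other spots; further genes were named after their values were seen. Regions came from scanpy 1.11.5 with leidenalg 0.10.2 at resolution 0.5. Alternatives used size factors by median of ratios, TMM factors (edgeR 4.0.16), other totals, spot filters, thresholds and thinning depths. Positions and the end search used GENCODE vM21, on the files' build.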

Additional observations from a re-analysis of the deposited data

How the results depend on the processing

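The log2 ratio of the summed members, PD1 KO over PD1 Het, was -0.70. It was -1.01 with TMM factors, -1.01 with size factors, -0.88 without mitochondrial genes in the total, and -1.03, -1.03 and -0.98 relative to the median gene at 100, 10 and 1000 UMIs. Without the highest spot of each section it was -0.91, without the 10 highest -0.46, in the highest matrix bin -0.91 and in the lowest 0.049, where Cma1 stood at 0.067. Chosen after seeing the data, leaving out only the highest PD1 KO spot gave -1.16 and only the 3 highest PD1 Het spots 0.013. Over the alternatives, Tpsb2 was lower in the PD1 KO section in 17 of 17, Cpa3 in 17 of 17, Cma1 in 16 of 17 and Mcpt4 in 13 of 17. The alternatives that only changed the scaling moved every member by the same amount, so they are not separate checks of direction. Mcpt4 reached 2.05 in the lowest matrix bin. The causes were not tested.

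The share of spots with a protease UMI was 7.55% in the PD1 Het against 6.25% in the PD1 KO section after thinning to 5000 UMIs, 14.8% and 11.9% at 15000, which left out 365 PD1 Het and 25 PD1 KO spots, and 15.5% and 15.9% without thinning. Protease-rich spots numbered 7 and 13 at 10 UMIs or more, and 31 and 43 at 3 or more. Tissue lists at least 1.5-fold higher with an interval above 1 numbered 10 in the PD1 Het section against 4 in the PD1 KO section. The 10 included Schwann cell and nerve markers at 1.91-fold and tendon and valve markers at 1.80-fold. In the PD1 KO section these 2 lists stood at 0.95-fold and 1.32-fold. Those counted in the PD1 KO section were the macrophage, T cell, epicardial and skeletal muscle lists. Skeletal muscle markers stood at 2.59-fold (1.16 to 5.07) there, on 9 UMIs in protease-rich spots. In the PD1 KO section such lists numbered 8 at 10 UMIs or more, 9 in the 20 spots with the largest share and 7 by the mean over spots. On the log2 scale, adventitial markers turned to -0.14 by the median gene in the PD1 Het section against 0.040 at 10 UMIs or more in the PD1 KO section, where red blood cell genes turned to -0.93 and, in the 20 spots, -0.78. The leading region held 49.9% of PD1 Het UMIs at resolution 1.0, in 28 spots (3.45%). At 0.3 it held 75.6% of PD1 KO UMIs, in 351 spots (41.2%). Of 249 list alternatives, 17 changed sign: these 4, and 13 of lists whose interval already included no difference. No paired analysis was possible because each group has 1 section. Depth limits the receptor genes, which had few UMIs.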
